A study of Mus musculus with 6 samples.

Results

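The Schlafen family was examined through its 6 members Slfn1, Slfn2, Slfn3, Slfn5, Slfn8 and Slfn9, chosen by symbol from the 14515 gene rows of a count table. All 6 had a row, and 5 of them passed the filter on low counts that left 9565 genes for testing. The table came from naive CD8 T cells sorted from spleens of 3 LAIR-1-deficient (Lair1-/-) mice and 3 wild type (Lair1+/+) mice, as 1 library of total RNA per mouse from 100000 cells. LAIR-1 is an inhibitory collagen receptor of leukocytes, and the comparison addresses the state of resting CD8 T cells that lack it. The cells were gated on CD45, CD3, CD8 and absence of CD44, among other surface proteins, and received no stimulus in either group. The sources used here give no Lair1 allele, strain, age or sex for the mice. In bulk RNA of this kind, fewer cells with a transcript and less transcript per cell cannot be told apart.

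Schlafen proteins share a core domain with a fold related to ATP binding, and in mice they come in short, intermediate and long forms, the long ones with an added helicase-like region. The family was first described in developing thymocytes, where overexpression of Slfn1 stops T cell growth. Slfn2 is needed for T cell quiescence: mice with the elektra mutation of Slfn2 lose peripheral T cells that fail to stay at rest, and the protein shields tRNA from cleavage by the ribonuclease angiogenin once T cells are activated. Type I interferon induces several Schlafen genes in mouse and human cells, and human long Schlafens such as SLFN11 act on tRNA.

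In GRCm38 (GENCODE vM21), 9 Schlafen genes lie side by side on chromosome 11 between 82951349 and 83286726, a span of 335 kb with 0 protein coding genes of other families inside it. Slfn5 (ENSMUSG00000054404.13, plus strand) occupies 82951349 to 82964840, Slfn9 (ENSMUSG00000069793.12, minus strand) 82978390 to 82991830, and Slfn8 (ENSMUSG00000035208.16, minus strand) 83002158 to 83020810. Slfn2 (ENSMUSG00000072620.3) follows at 83065112 to 83070678, Slfn1 (ENSMUSG00000078763.2) at 83116849 to 83122670 and Slfn3 (ENSMUSG00000018986.10) at 83191330 to 83215154, all on the plus strand. All 6 are annotated as protein coding. The longest annotated coding sequence has 337 codons in Slfn1 and 378 in Slfn2, the short members. It has 640 codons in Slfn3, the intermediate member, and 884, 910 and 910 in Slfn5, Slfn8 and Slfn9, the long members.

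The 250 bases before the RefSeq start site are shown for the 5 members tested. The long members each held the letters of an interferon-stimulated response element, TTTC and TTTC with 2 free bases between them, on one strand or the other. The match is in capitals, and on the opposite strand it reads GAAA and GAAA.
Slfn8: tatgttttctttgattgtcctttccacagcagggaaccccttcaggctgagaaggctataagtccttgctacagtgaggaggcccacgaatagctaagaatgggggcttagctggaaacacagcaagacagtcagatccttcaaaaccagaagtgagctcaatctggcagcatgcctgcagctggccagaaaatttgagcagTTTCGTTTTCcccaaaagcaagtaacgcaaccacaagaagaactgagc
Slfn9: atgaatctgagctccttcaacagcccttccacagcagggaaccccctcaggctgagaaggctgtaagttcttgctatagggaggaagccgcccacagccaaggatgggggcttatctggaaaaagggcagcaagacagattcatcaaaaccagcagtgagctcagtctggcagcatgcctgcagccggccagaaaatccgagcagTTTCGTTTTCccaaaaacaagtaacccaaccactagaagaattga
Slfn5: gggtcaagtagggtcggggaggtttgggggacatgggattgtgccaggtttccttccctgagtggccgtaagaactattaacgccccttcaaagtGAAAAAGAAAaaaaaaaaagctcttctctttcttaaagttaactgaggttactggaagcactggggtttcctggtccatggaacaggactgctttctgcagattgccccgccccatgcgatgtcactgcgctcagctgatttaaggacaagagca

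These windows are chr11:83020811-83021060 and chr11:82991831-82992080 on the minus strand and chr11:82951852-82952101 on the plus strand, with sequence from RefSeq on GRCm38.p6, printed 5′ to 3′ on the gene's strand. The match began 48 bases before the start site in Slfn8, 45 bases before it in Slfn9 and 155 bases before it in Slfn5. The Slfn8 and Slfn9 windows are copies of each other, identical at 83.3% of 245 aligned bases, so their matches are not independent. RefSeq lists another Slfn8 start site downstream, from which the same match begins 136 bases away. In the Slfn5 window the match abuts a run of A, and 117 of the 250 bases lie in exons of other Slfn5 transcripts. Of 32817 windows of this length over all RefSeq genes, 2.97% held such a match, and it was found in 3 of the 6 members. The Slfn3 window had none.

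The short members had no match of this kind. Their windows shared the stretch CACTTCCTGGAG, shown in capitals, the longest run of letters that both hold. It is not particular to them: with 50 bases after the start site included, the intermediate gene Slfn4 shared the run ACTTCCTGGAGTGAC (15 bases) with Slfn1 and ACTTCCTGGAG (11 bases) with Slfn2.
Slfn1: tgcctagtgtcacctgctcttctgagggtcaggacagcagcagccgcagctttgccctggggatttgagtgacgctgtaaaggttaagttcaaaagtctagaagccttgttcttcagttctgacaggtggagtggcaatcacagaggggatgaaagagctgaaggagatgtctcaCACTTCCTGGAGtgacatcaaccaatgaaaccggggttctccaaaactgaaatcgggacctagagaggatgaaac
Slfn2: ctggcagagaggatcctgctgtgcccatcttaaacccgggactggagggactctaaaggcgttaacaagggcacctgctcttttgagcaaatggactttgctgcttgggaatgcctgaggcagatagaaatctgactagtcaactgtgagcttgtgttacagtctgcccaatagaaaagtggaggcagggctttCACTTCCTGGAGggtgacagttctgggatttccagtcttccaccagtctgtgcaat
These windows are chr11:83116570-83116819 and chr11:83064862-83065111, both on the plus strand and outside annotated exons. The stretch began 75 bases before the start site in Slfn1 and 56 bases before it in Slfn2, and it occurred on either strand in 9 of the 32817 windows. The letters used for STAT sites (TTC and GAA with 3 free bases between), AP-1 sites (TGANTCA) and NF-kB sites (GGGA and TTTCC with 1 free base between) were searched on both strands and found in 0 of the 6 members' windows. Of all windows, 7.01%, 6.75% and 0.357% held them, in that order. No matches overlapped each other. A match or its absence in these windows describes letters and says nothing about binding.

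Counts per library over all genes ranged from 5519748 to 7296424 in LAIR-1-deficient mice and from 7974206 to 9187017 in wild type mice. Lair1 had 2, 1 and 1 counts in LAIR-1-deficient libraries and 58, 32 and 43 in wild type libraries, so the labels held for the targeted gene, and edgeR's quasi-likelihood test gave a log2 fold change of -4.58 with an adjusted p of 0.00255. It was the only gene called among the 9565 tested. Transcripts of the gated T cell proteins were abundant in all libraries, with Cd8a between 891 and 972 CPM in LAIR-1-deficient and between 870 and 989 CPM in wild type cells. Summed markers of other cell types ranged from 0.712 CPM for dendritic cell genes to 262 CPM for genes of monocytes, macrophages and neutrophils. The 6 B cell genes summed to between 28.8 and 35.3 CPM in LAIR-1-deficient and between 31.7 and 35.1 CPM in wild type libraries. The 5 genes of CD4 and regulatory T cells were led by Ctla4 and Foxp3. They summed to 5.51 to 9.95 CPM in LAIR-1-deficient and 3.50 to 6.84 CPM in wild type libraries. The 3 tested all had positive fold changes, with a median log2 value of 0.38. The 6 dendritic cell genes summed to 0.712 to 2.19 CPM in LAIR-1-deficient and 1.31 to 1.46 CPM in wild type libraries. The 12 genes of monocytes, macrophages and neutrophils summed to between 217 and 225 CPM in LAIR-1-deficient and between 217 and 262 CPM in wild type libraries, most of it from Ctss and Cst3, and 5 NK cell genes, led by Prf1 and Gzma, to between 4.80 and 8.36 CPM in LAIR-1-deficient and between 5.68 and 6.62 CPM in wild type libraries, with 1 count of Ncr1 in all. The 5 erythroid and platelet genes, led by Beta-s and Ppbp, varied most, between 27.9 and 143 CPM in LAIR-1-deficient and between 39.6 and 171 CPM in wild type libraries. The 8 memory and effector genes, led by Eomes and Il2rb, summed to between 131 and 141 CPM in LAIR-1-deficient and between 129.5 and 147 CPM in wild type libraries. None of these markers was called, and their part in the Schlafen levels was not tested. Mouse 1 of both genotypes stood apart from the other libraries in immediate early genes, as given below, and results are therefore also stated without it. Same-numbered mice are not stated to share a litter or a day.

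Slfn1 and Slfn2 were by far the main Schlafen transcripts, and the long members were present at low levels. Levels are CPM after TMM scaling, and levels of different genes are set side by side as CPM per kilobase of merged exons. Which stretch of a transcript the reads cover is not stated, so this scale assumes reads along the whole transcript. The percentiles and ratios given per kilobase hold only under that assumption. For reads from a transcript end alone, the scale would set long genes too low beside short ones. Over the 6 libraries Slfn1 averaged 271 CPM per kilobase, which placed it at the 98.3rd percentile of the 9479 tested genes with an annotated length, and Slfn2 averaged 119 CPM per kilobase, at the 96.6th percentile. Slfn8 averaged 9.09, Slfn5 4.05 and Slfn9 1.22 CPM per kilobase, at percentiles 68.3, 48.4 and 19.6. Slfn3 was at 0.0529 CPM per kilobase. Without division by length the means were 506 CPM for Slfn1, 198 for Slfn2, 37.2 for Slfn8 and 25.6 for Slfn5. Slfn9 averaged 7.27 CPM and Slfn3 0.18 CPM.

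The order Slfn1, Slfn2, Slfn8, Slfn5, Slfn9, Slfn3 held without overlap between neighbours on the per-kilobase scale. Slfn8 lay between 6.98 and 10.9, Slfn5 between 1.96 and 5.71 and Slfn9 between 0.773 and 1.92 CPM per kilobase, so the lowest Slfn5 library and the highest Slfn9 library were almost level. In CPM without division by length, Slfn8 (28.5 to 44.4 CPM) and Slfn5 (12.4 to 36.1 CPM) overlapped. Within a library, Slfn1 was between 2.11 and 2.65 times Slfn2 per kilobase in LAIR-1-deficient cells and between 1.91 and 2.47 times in wild type cells.

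**Figure D1:**
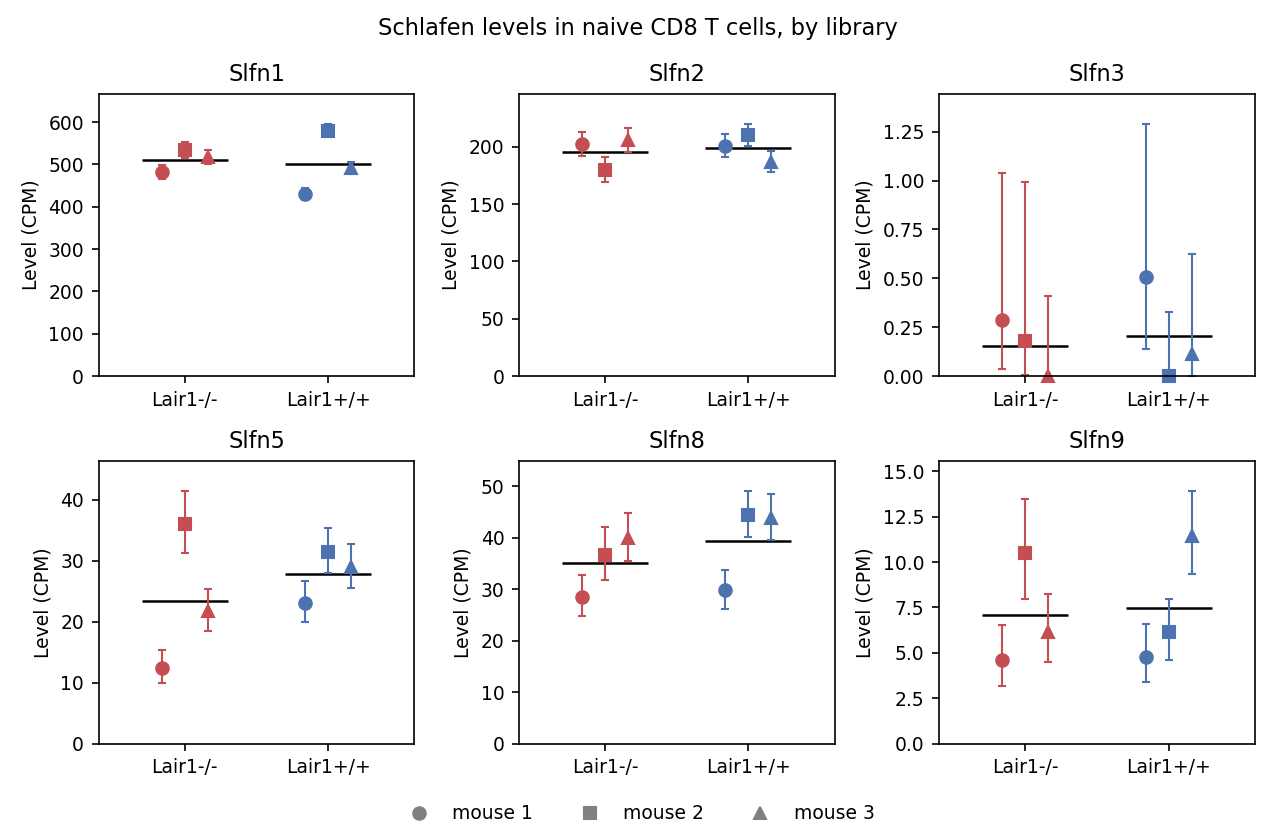
Level of each Schlafen member in CPM (TMM scaled) on an axis from 0, with LAIR-1-deficient (Lair1-/-) libraries on the left and wild type (Lair1+/+) libraries on the right of each panel. Points are mice, bars are 95% Poisson intervals for counting error only (up to the 3-count limit where the count is 0) and lines are group means; the groups overlap in every panel, and Slfn5 in LAIR-1-deficient mouse 1 is the lowest of its panel at 12.4 CPM.

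None of the Schlafen genes was called different between LAIR-1-deficient and wild type cells. In edgeR's quasi-likelihood test, 0 of the 5 members tested were called at an adjusted p under 0.05, where 0.0105% of all genes tested were called. At an unadjusted p under 0.05 the count was 0 of 5 in edgeR, in DESeq2 and in limma-voom, against 3.25% of all genes in edgeR. The libraries of the genotypes overlapped for all 5, where 8.38% of all genes had no overlap and 4.09% had none with LAIR-1-deficient libraries lower. Without mouse 1 of both groups, which leaves 2 mice a group, 1 of 5 members, Slfn8, had no overlap, with LAIR-1-deficient libraries lower. In that split 33% of all genes had no overlap and 16.4% had none with LAIR-1-deficient libraries lower. The log2 fold change was positive for 1 member and negative for 4, with a median of -0.10, while 49.8% of all genes had a negative value and the median over all genes was 0.0006. All 5 members had an adjusted p of 0.9999 in edgeR.

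Slfn1, whose overexpression in thymocytes arrests growth, was at 482, 534 and 517 CPM in LAIR-1-deficient mice 1 to 3 and at 431, 580 and 492 CPM in wild type mice 1 to 3. The values rest on 3000 to 5301 counts per library. Wild type mice 1 and 2 gave the lowest and the highest of all 6 values, with the LAIR-1-deficient libraries between them. Group means were 511 ± 26.5 CPM in LAIR-1-deficient and 501 ± 75.1 CPM in wild type cells (SD, n = 3 each). The log2 fold change was 0.03 (SE 0.10), and the 95% interval of the fold ran from 0.877 to 1.19. Its sign turned when wild type mouse 1 (-0.07), LAIR-1-deficient mouse 2 (-0.004) or both mouse 1 libraries (-0.03) were left out.

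Slfn2, the quiescence factor of the family, had the smallest spread of the 5 over all 6 libraries, though not without mouse 1 of both groups. It was at 202, 180 and 205.5 CPM in LAIR-1-deficient mice 1 to 3 and at 201, 210 and 187 CPM in wild type mice 1 to 3, so the groups covered nearly the same range. Means were 196 ± 14.0 CPM in LAIR-1-deficient and 199 ± 11.9 CPM in wild type cells (SD, n = 3 each). The log2 fold change was -0.02 (SE 0.10), and the interval of the fold, 0.855 to 1.13, was the narrowest of the 5. Leaving out LAIR-1-deficient mouse 2 or wild type mouse 2 turned the sign, to 0.03 and 0.02. An antisense gene without a row in the table, Gm20234, overlaps Slfn2, and whether the counts keep the strands apart is not stated.

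Slfn8, a long member that slows T cell growth when overexpressed in transgenic mice, was at 28.5, 36.6 and 39.9 CPM in LAIR-1-deficient mice 1 to 3 and at 29.8, 44.4 and 43.9 CPM in wild type mice 1 to 3. Mouse 1 was lowest in both genotypes, and without it the LAIR-1-deficient libraries lay below the wild type ones. Means were 35.0 ± 5.86 CPM in LAIR-1-deficient and 39.4 ± 8.31 CPM in wild type cells (SD, n = 3 each), with a log2 fold change of -0.17 (SE 0.17) and a fold interval of 0.697 to 1.13. The value was negative in every fit that left out a library, from -0.33 without wild type mouse 1 to -0.04 without LAIR-1-deficient mouse 1. These fits share most of their libraries, and how many of all genes keep their sign was not counted.

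Slfn9, the neighbour and close copy of Slfn8, was at 4.61, 10.5 and 6.15 CPM in LAIR-1-deficient mice 1 to 3 and at 4.79, 6.13 and 11.4 CPM in wild type mice 1 to 3. LAIR-1-deficient mouse 2 and wild type mouse 3 were high, with 59 and 102 counts, and the other 4 libraries had 32 to 56 counts. The log2 fold change was -0.10 (SE 0.35), with a fold interval of 0.549 to 1.58. Its sign turned without LAIR-1-deficient mouse 1 (0.13) and without wild type mouse 3 (0.35).

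Slfn5, a long nuclear member, varied most within LAIR-1-deficient mice. It was at 12.4, 36.1 and 21.7 CPM in LAIR-1-deficient mice 1 to 3, from 86, 203 and 159 counts, and at 23.1, 31.5 and 29.1 CPM in wild type mice 1 to 3. LAIR-1-deficient mice gave both the lowest and the highest of the 6 values. The 95% Poisson interval of LAIR-1-deficient mouse 1, 9.92 to 15.3 CPM, lay below those of the other 5 libraries, the nearest of which was 18.5 to 25.4 CPM. These intervals hold counting error alone and no spread between mice. Means were 23.4 ± 11.9 CPM in LAIR-1-deficient and 27.9 ± 4.34 CPM in wild type cells (SD, n = 3 each). The log2 fold change was -0.27 (SE 0.38) with a fold interval of 0.435 to 1.58, and it was 0.03 without LAIR-1-deficient mouse 1 and -0.71 without LAIR-1-deficient mouse 2. The antisense gene Slfn5os, which overlaps Slfn5 and is listed in the table under an older symbol, 1700003F17Rik, had 1 count in all libraries together.

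Slfn3, an intermediate member studied in the gut epithelium of rats, was close to the limit of detection. It had 2, 1 and 0 counts in LAIR-1-deficient mice 1 to 3 and 4, 0 and 1 counts in wild type mice 1 to 3. The count of 0 allows up to 3 counts, which is 0.41 CPM in LAIR-1-deficient mouse 3 and 0.328 CPM in wild type mouse 2. The summed counts of 3 in LAIR-1-deficient and 5 in wild type libraries give a ratio of 0.784 with an exact 95% binomial interval of 0.122 to 4.03, for counting error only, so no difference was detectable at this depth. Of the 50-base windows of Slfn3, 7.39% occurred unchanged in Slfn4, so counts could have been split between these genes too.

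**Figure D2:**
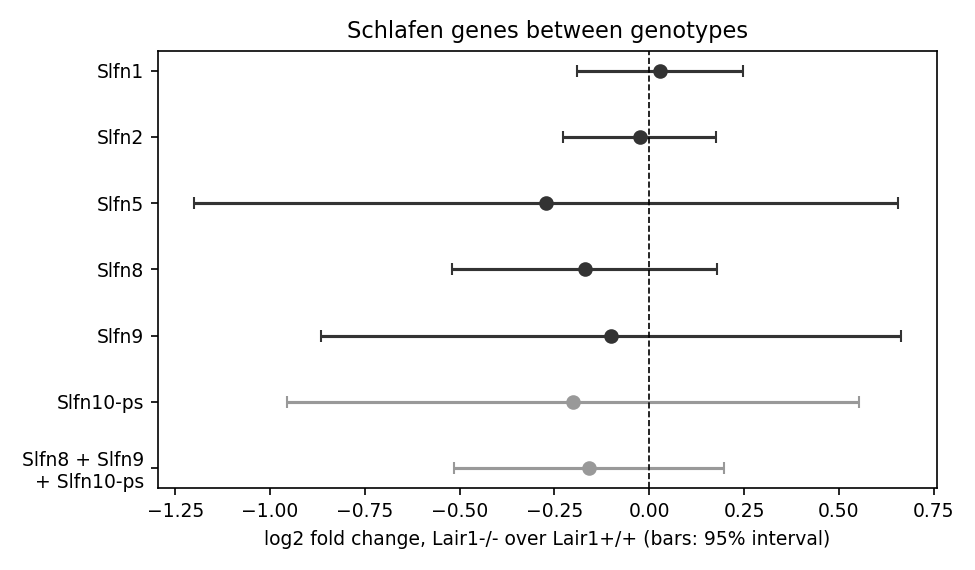
log2 fold change of LAIR-1-deficient over wild type cells for the 5 members tested (dark), the pseudogene Slfn10-ps and the sum of Slfn8, Slfn9 and Slfn10-ps (grey), with 95% intervals from edgeR's quasi-likelihood test. Every interval includes 0, and the intervals of Slfn1 and Slfn2 are the narrowest.

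Reads of the long members on the minus strand could have been assigned to the wrong copy. The longest transcripts of Slfn8 and Slfn9 were identical at 90.0% of 3881 aligned bases, and 9.30% of the 50-base windows of Slfn8 occurred unchanged in Slfn9. The annotated pseudogene Slfn10-ps, identical to Slfn8 at 91.6% of 3606 aligned bases, shared 10.1% of Slfn8's windows. Slfn1, Slfn2 and Slfn5 shared 0 such windows with Slfn8 or Slfn9, and 4.27% of Slfn2's windows occurred in Slfn4, which had few counts. These shares, and that of Slfn3 above, count windows along whole transcripts, while the stretch that the reads cover is not stated. Summed, Slfn8, Slfn9 and Slfn10-ps reached 35.5, 50.3 and 50.04 CPM in LAIR-1-deficient mice 1 to 3 and 38.9, 53.1 and 59.5 CPM in wild type mice 1 to 3, with mouse 1 again lowest in both genotypes. The summed log2 fold change was -0.16 (SE 0.17, edgeR adjusted p of 1), close to that of Slfn8 alone.

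Other Schlafen genes in the table were low. Slfn10-ps averaged 3.16 ± 0.830 CPM in LAIR-1-deficient and 3.65 ± 0.985 CPM in wild type cells (SD, n = 3 each), with a log2 fold change of -0.20 and no call. Slfn4, an intermediate gene known from myeloid cells and the closest relative of Slfn3, had 1, 1 and 4 counts in LAIR-1-deficient and 0, 1 and 0 in wild type libraries. This was 6 counts in LAIR-1-deficient and 1 in wild type libraries in sum, a ratio of 7.84 with a counting interval of 0.952 to 361. Slfn14, listed under the older symbol Slfn14-ps, and Slfnl1, a relative on chromosome 4, had 1 count each in all libraries together.

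Spread between mice differed among the members. With 1 library per mouse, it cannot be told apart from differences in sorting or library preparation. The within-group SD of log2 CPM was 0.10 for Slfn2, 0.16 for Slfn1, 0.29 for Slfn8, 0.56 for Slfn5 and 0.60 for Slfn9. In edgeR's estimate of the biological coefficient of variation, which leaves out counting noise, Slfn2 had 0.113, Slfn1 0.126 and Slfn8 0.139, at percentiles 25.3, 46.5 and 58.0 of all genes tested. Slfn5 had 0.317 where the trend at its level was 0.1204, at percentile 97.3, and Slfn9 had 0.275 where the trend was 0.176, at percentile 94.2. The highest library exceeded the lowest by 2.91-fold for Slfn5 and 2.48-fold for Slfn9, against 1.56-fold for Slfn8, 1.35-fold for Slfn1 and 1.17-fold for Slfn2.

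**Figure D3:**
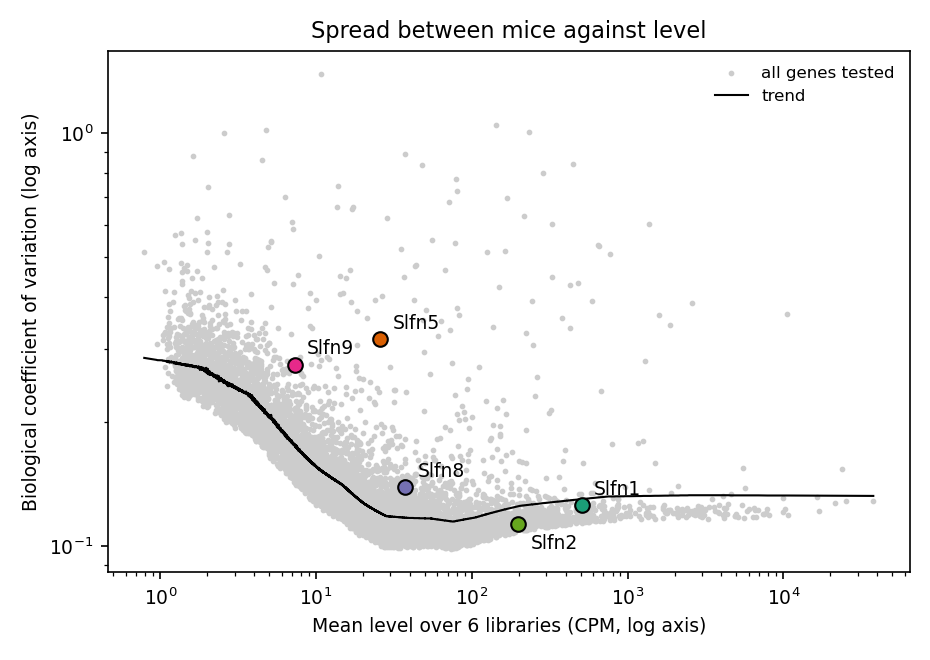
Biological coefficient of variation between mice (edgeR, log axis) against mean level in CPM (log axis) for the 9565 genes tested, with the trend as a line and the 5 Schlafen members tested marked. Slfn5 at 0.317 and Slfn9 at 0.275 sit above the trend, and Slfn1, Slfn2 and Slfn8 lie near it.

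For some members the mouse 1 libraries of both genotypes were the lowest. Slfn1, Slfn8 and Slfn9 had both mouse 1 libraries below the other 4, which is 3 of 5 members against 12.1% of all genes tested. This split was looked at after the values were seen. Slfn8 and Slfn9 are close copies whose reads could have been misassigned, so they are not independent members. For Slfn1, LAIR-1-deficient mouse 1 (482 CPM) lay just below wild type mouse 3 (492 CPM). Their Poisson intervals, 466 to 498 and 477 to 506 CPM, overlapped. The within-group SD of Slfn9 was 0.60 over all libraries and 0.57 without mouse 1 of both groups. For Slfn5, LAIR-1-deficient mouse 1 was the lowest library, while wild type mouse 1 was the lowest wild type library but stood above LAIR-1-deficient mouse 3. The long members together reached 45.6, 83.2 and 67.8 CPM in LAIR-1-deficient mice 1 to 3 and 57.6, 82.1 and 84.4 CPM in wild type mice 1 to 3. Slfn2 was not lower in mouse 1.

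The same libraries differed in other gene groups, and the part of those groups in the Schlafen values was not tested. Of 18 tested immediate early genes, which T cell receptor signals switch on within minutes, 16 had both mouse 1 libraries above the other 4, against 11.9% of all genes. Relative to each gene's mean over the 6 libraries, their median log2 level was 1.16, -0.65 and -0.44 in LAIR-1-deficient mice 1 to 3 and 0.80, -0.51 and -0.27 in wild type mice 1 to 3. Of 32 tested interferon-stimulated genes, 8 had both mouse 1 libraries below the other 4, against 12.1% of all genes. The median log2 level of the 32 was -0.20, 0.11 and -0.12 in LAIR-1-deficient mice 1 to 3 and -0.20, 0.35 and 0.09 in wild type mice 1 to 3. Without mouse 1 of both groups the within-group SD of log2 CPM was 0.07 for Slfn8, 0.12 for Slfn1, 0.13 for Slfn2, 0.36 for Slfn5 and 0.57 for Slfn9. It was smaller than over all libraries for 4 of the 5 and larger for Slfn2, and Slfn8 had the smallest. These SDs rest on 2 mice a group, and the share of all genes with a smaller SD there was not counted. For Slfn5 the SD was 0.35 without LAIR-1-deficient mouse 1 alone. The log2 fold changes without mouse 1 of both groups were -0.03 for Slfn1, -0.05 for Slfn2, -0.09 for Slfn5, -0.21 for Slfn8 and -0.10 for Slfn9, and 0 of them were called.

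**Figure D4:**
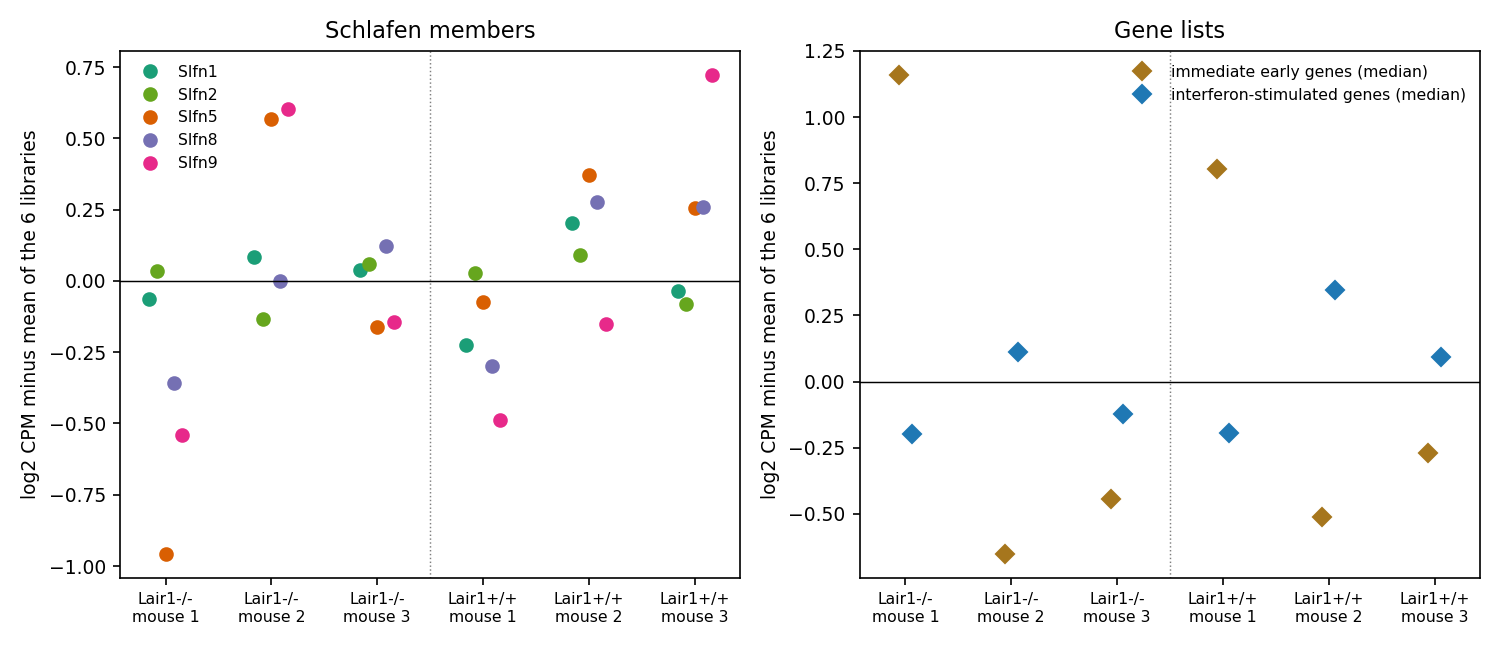
log2 CPM minus each gene's mean over the 6 libraries, for the 5 Schlafen members tested (left) and as medians of 18 immediate early and 32 interferon-stimulated genes (right), with LAIR-1-deficient (Lair1-/-) libraries left of the dotted line and wild type (Lair1+/+) libraries right of it. Immediate early genes are highest in mouse 1 of both genotypes, at 1.16 and 0.80, and Slfn8 and Slfn9 are lowest there.

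Genes of pathways around the Schlafens gave 0 calls in either direction. For each interferon list, the 2 genes named were those of smallest unadjusted p, with an adjusted p of 0.9999 in edgeR's test. Of 15 tested genes of type I interferon signalling, 3 had positive and 12 negative fold changes with a median of -0.04. Irf7, which drives the amplifying phase of interferon production, was at 36.5 ± 5.39 CPM in LAIR-1-deficient and 50.4 ± 12.8 CPM in wild type cells, and Stat2, part of the complex that binds response elements, at 21.2 ± 2.09 CPM in LAIR-1-deficient and 17.1 ± 2.60 CPM in wild type cells (SD, n = 3 each). Over all genes tested, 49.8% had a negative fold change. Of the 32 interferon-stimulated genes, the fold change was above 0 for 6 and below 0 for 26 (median -0.19). Among them Ifih1, a sensor of viral RNA, was at 2.88, 6.40 and 5.61 CPM in LAIR-1-deficient mice 1 to 3 and at 7.19, 9.63 and 7.18 CPM in wild type mice 1 to 3. The antiviral membrane protein gene Bst2 was at 14.9 ± 1.73 CPM in LAIR-1-deficient and 19.4 ± 2.73 CPM in wild type cells (SD, n = 3 each).

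Genes of T cell quiescence, the process Slfn2 is known for, were split, with a positive fold change for 5 and a negative one for 7 of the 12 tested, a median of -0.03 and 0 calls. Foxp1, a transcription factor that holds naive T cells at rest, was at 354 ± 23.8 CPM in LAIR-1-deficient and 386 ± 13.5 CPM in wild type cells, and Tob2, an antiproliferative protein gene, at 83.5 ± 16.9 CPM in LAIR-1-deficient and 104 ± 34.8 CPM in wild type cells (SD, n = 3 each). Of these 12 genes, 5 had both mouse 1 libraries above the other 4, against 11.9% of all genes tested. Genes that cut, modify or protect tRNA were positive for 4 and negative for 2 of the 6 tested (median 0.07). Dicer1 was at 35.2 ± 4.08 CPM in LAIR-1-deficient and 30.6 ± 3.70 CPM in wild type cells, and Alkbh1, a tRNA demethylase gene, at 36.0 ± 4.20 CPM in LAIR-1-deficient and 39.5 ± 2.43 CPM in wild type cells (SD, n = 3 each). Ang, the gene of the ribonuclease from which Slfn2 shields tRNA, had 0 counts in LAIR-1-deficient libraries and 1 in wild type libraries. Immediate early genes had 13 positive and 5 negative values and a median of 0.06, with Myc at 0.15 and Ier3 at -0.32.

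Protein coding genes that flank the cluster had no call either. Of the 5 nearest on each side, 7 were in the table and 6 were tested, with 2 positive and 4 negative log2 fold changes and a median of -0.11. Rad51d, a DNA repair gene left of Slfn5, was at 14.0, 14.6 and 17.1 CPM in LAIR-1-deficient mice 1 to 3 and at 22.6, 19.15 and 15.8 CPM in wild type mice 1 to 3. The gene model 1700020L24Rik was at 1.15, 0.356 and 0.820 CPM in LAIR-1-deficient mice 1 to 3 and at 2.02, 1.86 and 1.68 CPM in wild type mice 1 to 3, without overlap. Its log2 fold change was -1.20 with an unadjusted p of 0.0400 and an edgeR adjusted p of 0.9999, from 64 counts in all libraries.

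The genes whose pattern over the 6 libraries was most like a member's were ranked by the root-mean-square difference of centred log2 CPM, among 6620 genes at 10 CPM or more. Gimap3 (0.0107), Aldh9a1 (0.0160) and Nt5c (0.0192) were nearest to Slfn2, and Tshz1 (0.0246), Cyb5b (0.0318) and Dnaja3 (0.0440) to Slfn1. Desi2 (0.0331), Krcc1 (0.0390) and Pcmtd2 (0.0522) were nearest to Slfn8. Slfn5 and Slfn9 had more distant neighbours, Nudcd1 (0.145), Eif5a2 (0.195) and Mga (0.223) for Slfn5, and Acsl4 (0.0934), mt-Rnr1 (0.132) and Xist (0.200) for Slfn9. The median difference from all these genes was 0.165 for Slfn2, 0.196 for Slfn1, 0.287 for Slfn8, 0.512 for Slfn9 and 0.514 for Slfn5. Among the members themselves the closest pair was Slfn1 and Slfn2 at 0.151, followed by Slfn1 and Slfn8 at 0.181, and the copies Slfn8 and Slfn9 differed by 0.388. Genes with little spread lie close to any other such gene, and over 6 libraries the ranking is a description.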

How the data were processed

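RNA of sorted naive CD8 T cells was measured in 6 libraries, made, as the labels' protocols say, with primers of the TruSeq small RNA kind. What the authors deposited is a table of raw counts, 1 column to a library, per the file headers. BWA (version not stated) and mm10 are named in the submitters' processing notes. How genes were annotated and counted, whether strand was used and whether molecular identifiers existed is not stated. The Poisson and binomial intervals treat each count as an independent read and hold counting error alone. The intervals of edgeR's fold changes also include spread between mice.

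Each column was tied to its mouse through the sample descriptions, with 0 columns unused. Spike-in rows, with 0 to 4 counts per library, were left out. The test was that of edgeR 4.0.16 (R 4.3.3), with filterByExpr at a smallest count of 10, TMM scaling and a robust quasi-likelihood F test of LAIR-1-deficient against wild type with no covariate, adjusted by Benjamini-Hochberg over 9565 genes at a threshold of 0.05. The script was tested on simulated data. SEs were derived from F and the estimated log2 fold change, and log2 CPM used a prior count of 2. DESeq2 1.42.0, limma 3.58.1, other scalings and filters, a replicate block, each library left out and both mouse 1 libraries left out were alternatives. Pairs of libraries gave a chi-square of 5.39 to 26.1 per gene, where sampling noise gives about 1, so none was merged as a duplicate. That they are separate mice comes from the labels.

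Table symbols were matched to GENCODE vM21 (GRCm38): 14314 of 14515 matched, 750 of them through an older symbol. All 6 members matched a RefSeq promoter (GRCm38.p6). Transcripts were aligned with MAFFT 7.526. The text names all members and other Schlafen rows, Lair1, the 2 tested genes of smallest unadjusted p per pathway list, the abundant genes of other cell types, and the 3 genes of most similar pattern per member. Ncr1, Cd8a, Ang, Slfn5os and Gm20234 were named after their values or positions were seen. The members and lists were chosen with earlier results of these data known. A gene of the gate is not reported here.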

Additional observations from a re-analysis of the deposited data

How the results depend on the processing

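No Schlafen member and no listed gene was called under any of the 14 alternatives, and the summed copies kept their sign (-0.32 to -0.01 over leave-one-out fits). The number of genes called in all, 1 here, was 3 with no low-count filter, 0 with a smallest count of 30, 0 without mouse 1 of both groups and 0 to 2 over leave-one-out fits. The median log2 fold change of the members, -0.10, ranged from -0.33 to 0.03 over leave-one-out fits. Single members ranged from -0.069 to 0.15 (Slfn1), -0.072 to 0.033 (Slfn2), -0.71 to 0.031 (Slfn5), -0.33 to -0.04 (Slfn8) and -0.47 to 0.35 (Slfn9) over these fits, and Slfn1 was at -0.033 without mouse 1 of both groups. The median within-group SD of log2 CPM, 0.29, was 0.42 with no filter, where Slfn3 enters, 0.13 without mouse 1 of both groups and 0.20 to 0.33 over leave-one-out fits. The cause of these shifts was not tested. Without a filter Slfn3 had a log2 fold change of -0.35, and summed with Slfn4 it had 0.88, from 9 counts in LAIR-1-deficient and 6 in wild type libraries.

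Same-numbered mice deviated together with a correlation of 0.29 for mouse 1, 0.01 for mouse 2 and 0.07 for mouse 3 over 9565 genes, so the numbers were not taken as pairs. LAIR-1-deficient mouse 2 with wild type mouse 3 (0.18) and LAIR-1-deficient mouse 3 with wild type mouse 2 (0.093) correlated more than same-numbered mice 2 and 3. Deviations were taken from group means, so the shift shared by the mouse 1 libraries enters these values too. With mouse number as a replicate block, 1 gene and 0 members were called, and the log2 fold changes were 0.04 for Slfn1, -0.02 for Slfn2, -0.33 for Slfn5, -0.16 for Slfn8 and -0.07 for Slfn9. Depth limits Slfn3, with 8 counts in all, and Slfn9, with 32 to 102 counts per library.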

Other observations

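Slfn8 and Slfn9, neighbouring close copies, did not keep a fixed ratio across mice. Reads could have been assigned to the wrong copy, and the ratio rests on 32 to 102 counts of Slfn9 per library. In CPM, Slfn8 was 6.19, 3.49 and 6.49 times Slfn9 in LAIR-1-deficient mice 1 to 3 and 6.21, 7.25 and 3.83 times Slfn9 in wild type mice 1 to 3. The ratio was low in LAIR-1-deficient mouse 2 and wild type mouse 3, the libraries with the highest Slfn9, and similar in the other 4. Over 9565 genes the deviations of these libraries from their group means correlated at 0.18. The other pairs among mice 2 and 3 gave 0.01, 0.09 and 0.07. Deviations from a group mean cancel out within the group. The shift shared by the mouse 1 libraries therefore enters all these values. The ratio was chosen after its values were seen, and no cause was tested.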
